A study of Rattus norvegicus with 8 samples.

Results

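Galectins and other genes used as tissue markers of thyroid cancer were examined in the rat thyroid after cervical X-irradiation. The 7 genes were Lgals1, Lgals3, Lgals3bp, Fn1, Timp1, Met, and Cited1, chosen by gene symbol out of 30560 gene identifiers in the count table. All 7 were present, and all 7 passed the filter on low counts in each comparison. Thyroid RNA from 8 male Wistar rats was sequenced, and the thyroids were taken 8 weeks after irradiation. Neonatal rats, 1 week old, received a sham exposure (1w0Gy) or 4 Gy of X-rays to the neck (1w4Gy). Adult rats, 4 months old, received the sham exposure (4m0Gy) or the same dose (4m4Gy). Each group had 2 samples, each from a separate rat, and the study sequenced the RNAs with the higher integrity from a larger group. No tumors were sampled, so the values describe these markers in non-tumor thyroid tissue.

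Galectins are lectins that bind beta-galactosides on cell surface and matrix glycoproteins. Lgals1 encodes galectin-1, Lgals3 encodes galectin-3, and Lgals3bp encodes a secreted glycoprotein that binds galectins. Galectin-3, fibronectin, and CITED1 are used in pathology to help separate papillary thyroid carcinoma from benign nodules. Fibronectin, encoded by Fn1, is a matrix glycoprotein bound by integrins. Timp1 encodes an inhibitor of matrix metalloproteinases, Met encodes the receptor of hepatocyte growth factor, and Cited1 encodes a transcriptional co-activator that binds CBP and p300. In a normal thyroid, these mRNAs can come from follicular cells, C cells, fibroblasts, macrophages, and vessels, and in bulk RNA fewer cells of a type and less RNA per cell cannot be told apart.

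The libraries held between 14835400 and 18138102 counts on genes (median 16180960). Thyroglobulin (Tg) took 18.5% to 21.3% of these counts, and the summed level of 12 thyrocyte markers was 190100 to 225900 CPM, the counts scaled to library size, over the 8 samples, so all 8 held the labelled tissue. None of the markers of 12 cell types that were in the table was at 0 in all samples, and the samples held varying amounts of other tissue. The summed level of 3 parathyroid markers was 343.1 CPM in one 4m4Gy sample and 1940 to 5482 CPM in the other 7. Replicates differed by more than counting error, since chi-square over its degrees of freedom was 7.97 to 16.2 within the 4 groups. Levels are given as CPM after TMM normalization over the 8 samples, and raw counts of the 7 genes ranged from 149 for Timp1 in one 4m4Gy sample to 12936 for Lgals3bp in one 4m0Gy sample.

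Promoter sequence is shown for the member with the highest level, Lgals3bp, and for the member with the largest difference between ages, Cited1. Each run holds the 250 bases before the transcription start of the RefSeq gene in assembly GRCr8, written 5′ to 3′ on the strand of the gene. The Lgals3bp run lies at chr10:104127849-104128098 on the minus strand, and the Cited1 run at chrX:71395024-71395273 on the minus strand. Capitals mark matches to TATAAA, the core of a TATA box, and to GAAA, any 2 bases, then GAAACT, a form of the interferon-stimulated response element, each searched on both strands.
Lgals3bp: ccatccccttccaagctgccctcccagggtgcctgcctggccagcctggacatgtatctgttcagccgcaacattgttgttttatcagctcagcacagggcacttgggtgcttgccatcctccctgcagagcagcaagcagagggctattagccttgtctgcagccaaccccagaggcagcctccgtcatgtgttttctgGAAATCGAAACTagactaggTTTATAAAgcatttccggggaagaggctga
Cited1: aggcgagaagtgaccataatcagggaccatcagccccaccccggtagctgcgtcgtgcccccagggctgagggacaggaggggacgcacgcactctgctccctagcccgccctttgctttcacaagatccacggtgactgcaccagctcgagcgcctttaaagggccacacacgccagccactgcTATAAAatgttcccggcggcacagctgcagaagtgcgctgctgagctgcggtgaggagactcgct
In Lgals3bp, GAAATCGAAACT stood at -50 to -39 from the start, and 0.233% of 33469 RefSeq promoter windows of the same length held a match to that motif. TATAAA stood at -28 to -23 in Lgals3bp, overlapping a match on the opposite strand at -30 to -25, and at -65 to -60 in Cited1, and 12.9% of the windows held it. A match is a match of letters only, and promoters of 4 of the 7 genes were in the RefSeq table, with neither motif in the windows of Met and Timp1.

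The 7 genes spanned a wide range of levels. When CPM was divided by transcript length in kilobases, the mean over the 8 samples was 295.9 ± 31.6 (SD, n = 8) for Lgals3bp and 274.7 ± 20.2 for Lgals1. These 2 genes changed places as first and second among the samples, and their ranges overlapped. Cited1 followed at 21.8 ± 8.97 CPM per kilobase, Timp1 at 13.3 ± 1.77, and Lgals3 at 11.6 ± 2.07, and the order of these 3 differed from sample to sample. Fn1 was sixth at 8.29 ± 3.02 and Met seventh at 3.30 ± 0.392 CPM per kilobase, each in the same place in all 8 samples. The mRNA of Lgals3, which encodes the galectin used as a tumor marker, was thus far below that of Lgals1 in these thyroids. Galectin proteins were not measured. The ratio of Lgals1 to Lgals3 per kilobase was 17.34 to 23.76 in the 4 samples of the 1 week groups and 26.23 to 30.58 in the 4 samples of the 4 month groups.

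**Figure D1:**
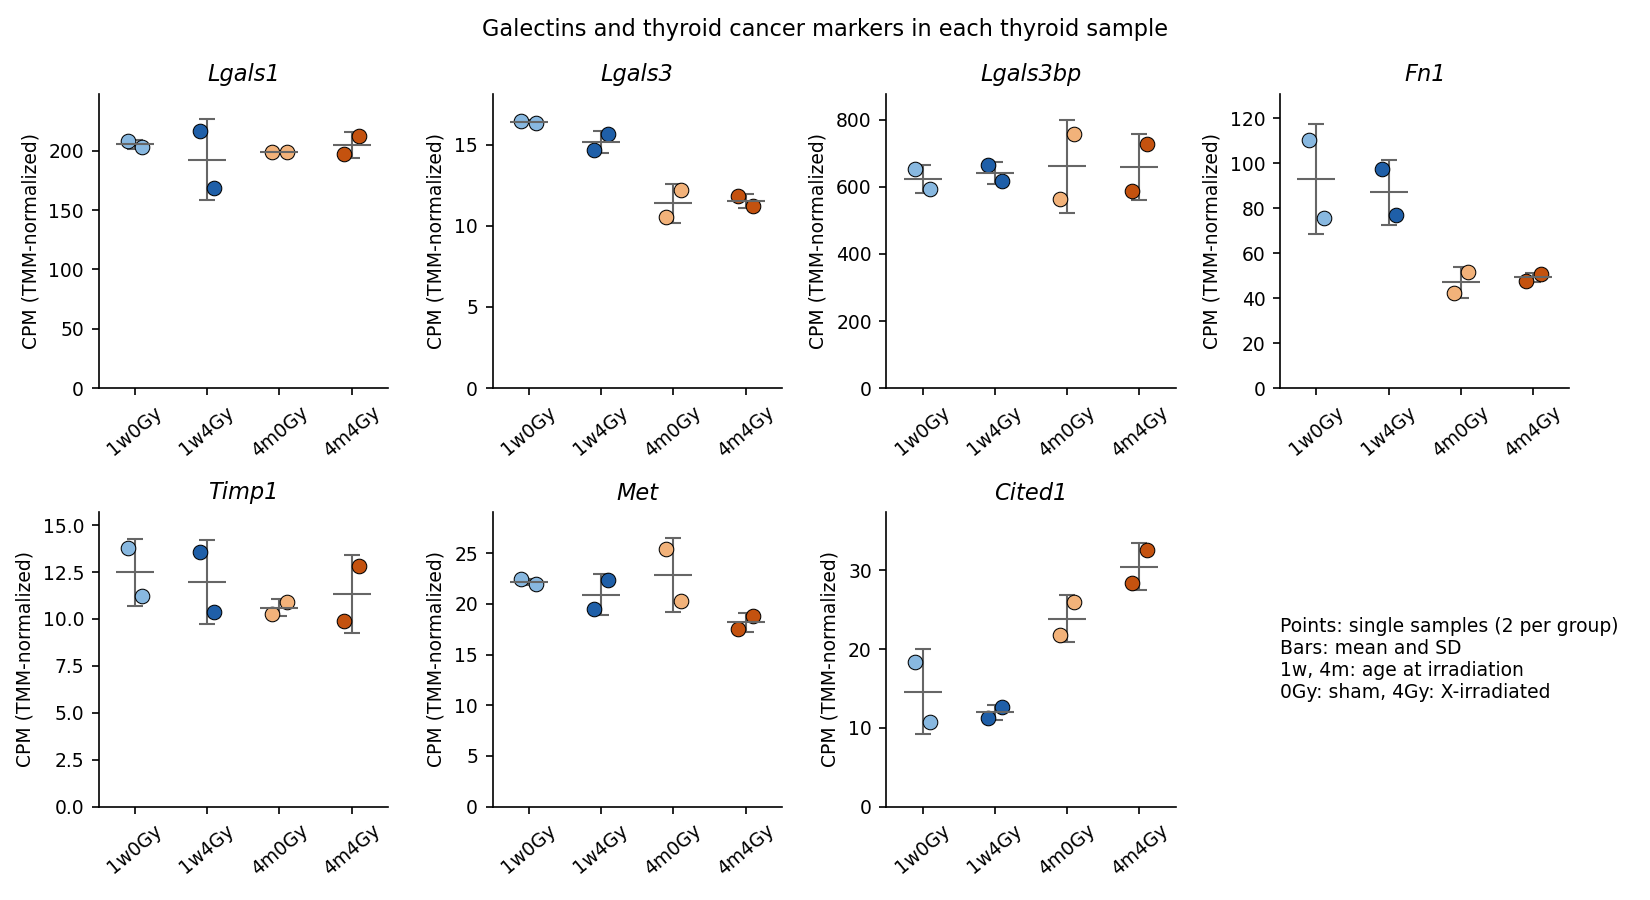
CPM of the 7 genes (vertical axes, from 0, linear) in the groups 1w0Gy, 1w4Gy, 4m0Gy, and 4m4Gy; points are the 2 samples of a group, and horizontal bars with whiskers are mean and SD. Cited1 is higher, and Lgals3 and Fn1 are lower, in all 4 samples of the 4 month groups than in all 4 samples of the 1 week groups.

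The first comparison addressed whether irradiation at 1 week of age altered these markers 8 weeks later. None of the 7 genes was called between 1w0Gy and 1w4Gy with the quasi-likelihood test of edgeR. A call needed a Benjamini-Hochberg adjusted p, taken over 15359 genes, under 0.05 together with a fold above 1.5 or under 0.5. Over all genes 0% were called, so the absence of calls among the members matches the background. None of the 7 had an unadjusted p under 0.05 in edgeR, DESeq2 called 0 of the 7, and 882 of all genes had an unadjusted p under 0.05.

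The galectins were close between these groups. Lgals3 was 16.46 and 16.33 CPM in 1w0Gy and 14.67 and 15.63 CPM in 1w4Gy. Both irradiated samples were lower, a separation found in 35.5% of all genes tested in one direction or the other, and the log2 fold change was -0.11 ± 0.12 (SE), with an adjusted p of 0.92 from edgeR. Lgals1 was 208.3 and 202.9 CPM in 1w0Gy and 216.5 and 168.4 CPM in 1w4Gy. The irradiated samples lay on both sides of the sham-irradiated ones. Lgals3bp was 652.9 and 594.8 CPM in 1w0Gy and 664.3 and 618.1 CPM in 1w4Gy, with overlapping groups.

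The other markers also overlapped between 1w0Gy and 1w4Gy. Fn1 was 110.4 and 75.85 CPM in 1w0Gy and 97.3 and 76.81 CPM in 1w4Gy. The spread within each group was larger than the difference of the means. Timp1 was 13.76 and 11.23 CPM against 13.55 and 10.38 CPM, and Met was 22.4 and 21.94 CPM against 19.46 and 22.37 CPM. For both genes one irradiated sample lay between the sham-irradiated ones and the other below them. Cited1 was 18.4 and 10.77 CPM in 1w0Gy and 11.31 and 12.67 CPM in 1w4Gy. It had the largest fitted difference of the 7 genes, -0.29 ± 0.25 (SE) on the log2 scale with an adjusted p of 0.896 from edgeR, and its direction turned without one 1w0Gy sample, at 0.157 without replicate 1. The 95% confidence intervals of the 7 fold changes ran from 0.547 to 1.29, so a fold of 2 in either direction lay outside each of them.

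The same question was asked of rats irradiated at 4 months of age. None of the 7 genes was called between 4m0Gy and 4m4Gy with edgeR at the same limits, where 0% of 15253 genes were called. Cited1 and Met had an unadjusted p under 0.05 in edgeR, as had 1227 of all genes. DESeq2 called 0 of the 7, but it gave no adjusted p for Lgals3, Timp1, and Met and so could not call them. Cited1 was 21.77 and 25.98 CPM in 4m0Gy and 28.41 and 32.56 CPM in 4m4Gy. Both irradiated samples were higher, and the log2 fold change was 0.35 ± 0.12 (SE) with an adjusted p of 0.583 from edgeR. Met was 25.39 and 20.29 CPM in 4m0Gy and 17.52 and 18.84 CPM in 4m4Gy. Both irradiated samples were lower, and the log2 fold change was -0.33 ± 0.14 (SE) with an adjusted p of 0.611 from edgeR. The value for Met was -0.163 without 4m0Gy replicate 1, and that for Cited1 was 0.226 without the same sample. Calca, the C cell gene that encodes calcitonin, was higher in both irradiated samples as well, at 5884 and 6769 CPM against 4108 and 5265 CPM. None of 7 C cell markers was called by edgeR or DESeq2, with 2 at an unadjusted p under 0.05 in edgeR. For the less abundant of these markers, DESeq2 may have given no adjusted p. Of these 7, 6 lay above 0 on the log2 scale and 1 below. Groups that did not overlap were found in 2 of the 7 genes and in 39.6% of all genes tested.

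The galectins, Fn1, and Timp1 overlapped between 4m0Gy and 4m4Gy. Lgals1 was 198.9 and 198.8 CPM in 4m0Gy and 197.5 and 212.8 CPM in 4m4Gy. Lgals3 was 10.53 and 12.2 CPM against 11.81 and 11.2 CPM, and Lgals3bp was 562.7 and 758.7 CPM against 588.7 and 727.5 CPM. For both of these genes the irradiated samples lay between the sham-irradiated ones. Fn1 was 42.25 and 51.79 CPM in 4m0Gy and 47.72 and 50.69 CPM in 4m4Gy. Timp1 was 10.27 and 10.91 CPM against 9.889 and 12.82 CPM. The 95% confidence intervals of the 7 fold changes at 4 months ran from 0.637 to 1.56.

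The age-by-irradiation interaction tested whether the response to irradiation differed between the ages, as the response at 1 week minus the response at 4 months. It was called for none of the 7 genes by edgeR or DESeq2, none had an unadjusted p under 0.05 in edgeR, and edgeR called 0% of 15684 genes, of which 1430 had an unadjusted p under 0.05. Cited1 had the largest fitted interaction of the 7, -0.64 ± 0.31 (SE) on the log2 scale with an adjusted p of 0.584 from edgeR. Its 95% confidence interval, -1.34 to 0.07, held 0, and the value was -0.198 without 1w0Gy replicate 1 and -0.964 without 1w0Gy replicate 2. With both ages combined, irradiation called none of the 7 genes in edgeR or DESeq2, with an adjusted p of 0.999 for each in edgeR and no unadjusted p under 0.05, while 0.00638% of all genes were called and 633 had an unadjusted p under 0.05. The intervals of the 7 fold changes then ran from 0.745 to 1.37, the narrowest of the irradiation comparisons. The groups overlapped for all 7 genes, and 1.54% of all genes did not overlap.

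**Figure D2:**
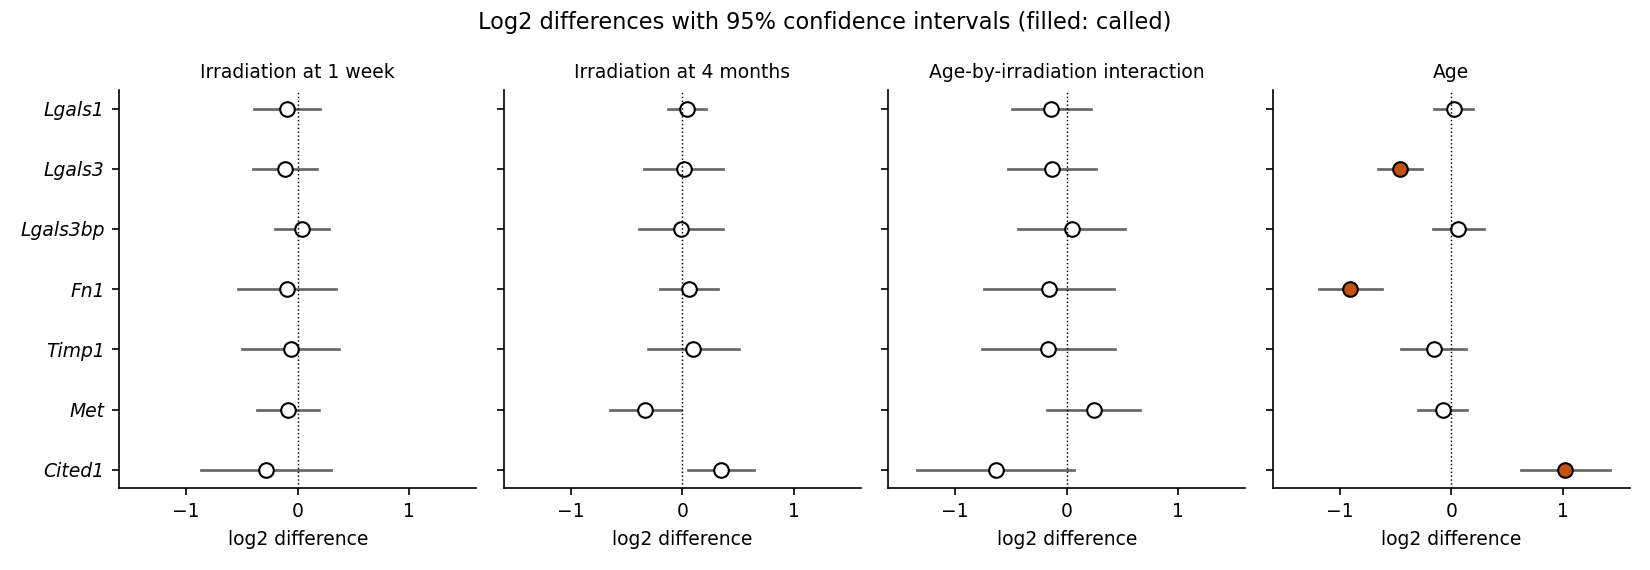
Log2 differences of the 7 genes (points) with 95% confidence intervals (lines) for irradiation at 1 week, irradiation at 4 months, their interaction, and age as 4 month groups minus 1 week groups; filled points passed the call limits. The filled points are Lgals3 at -0.46, Fn1 at -0.90, and Cited1 at 1.02, all in the age panel.

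Age was compared between the 4 samples of the 4 month groups and the 4 samples of the 1 week groups, with irradiation in the model. Cited1 rose, and Fn1 and Lgals3 fell, with the same test at an adjusted p under 0.05. These were 3 of the 7 genes, 1 higher and 2 lower, and edgeR called 4.25% of 15684 genes, 1.82% as higher and 2.43% as lower. DESeq2 called the same 3 genes. Groups did not overlap for these 3 of the 7 genes and for 12.8% of all genes. Age at irradiation, age at necropsy, and any difference in litter or shipment cannot be told apart in this comparison.

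Cited1 was 13.3 ± 3.501 CPM (SD, n = 4) in the 1 week groups and 27.2 ± 4.52 CPM (SD, n = 4) in the 4 month groups. The lowest 4 month sample, at 21.77 CPM, was above the highest 1 week sample, at 18.4 CPM. The log2 difference was 1.02 ± 0.18 (SE), a fold of 2.03 with a 95% confidence interval of 1.54 to 2.69, and the adjusted p was 0.0152 from edgeR. Within the irradiated samples alone the log2 difference was 1.35 ± 0.13 (SE) with an adjusted p of 0.0163. Within the sham-irradiated samples alone it was 0.71 ± 0.24 (SE), and the adjusted p of 0.214 missed the threshold.

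Fn1 was 90.1 ± 16.8 CPM (SD, n = 4) in the 1 week groups and 48.1 ± 4.27 CPM (SD, n = 4) in the 4 month groups. The 1 week samples ran from 75.85 to 110.4 CPM and the 4 month samples from 42.25 to 51.79 CPM. The log2 difference was -0.90 ± 0.13 (SE), a fold of 0.534 with a 95% confidence interval of 0.44 to 0.648, and the adjusted p was 0.00631 from edgeR. It was -0.99 ± 0.19 (SE) in the sham-irradiated samples alone and -0.82 ± 0.13 (SE) in the irradiated samples alone, and the adjusted p values of 0.0757 and 0.0609 from edgeR missed the threshold. DESeq2 called Fn1 in both, with adjusted p values of 5.04e-06 and 2.31e-05.

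Lgals3 was 15.8 ± 0.819 CPM (SD, n = 4) in the 1 week groups and 11.4 ± 0.730 CPM (SD, n = 4) in the 4 month groups. All 1 week samples were at or above 14.67 CPM, and all 4 month samples were at or below 12.2 CPM. The log2 difference was -0.46 ± 0.09 (SE), a fold of 0.726 with a 95% confidence interval of 0.632 to 0.833, and the adjusted p was 0.0208 from edgeR. The call was lost when 1w0Gy replicate 1, 1w0Gy replicate 2, 4m0Gy replicate 1, or 4m4Gy replicate 2 was left out, and the adjusted p from edgeR then reached 0.0715. Within the sham-irradiated samples alone the log2 difference was -0.53 ± 0.13 (SE) with an adjusted p of 0.134, and within the irradiated samples alone it was -0.39 ± 0.13 (SE) with an adjusted p of 0.25. In all, edgeR called 0 of the 7 genes in the sham-irradiated samples, where 3 had an unadjusted p under 0.05 and DESeq2 called 1, and 1 of the 7 in the irradiated samples, where 3 had an unadjusted p under 0.05 and DESeq2 called 2. The background was 0.722% of 15364 genes and 0.458% of 15275 genes.

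Lgals1, Lgals3bp, Timp1, and Met did not pass the test with age. Lgals1 was 199 ± 21.2 CPM (SD, n = 4) in the 1 week groups and 202 ± 7.22 CPM (SD, n = 4) in the 4 month groups, and the 95% confidence interval of its fold was 0.899 to 1.15. Lgals3bp was 632.5 ± 31.9 CPM against 659.4 ± 98.1 CPM, with an interval of 0.89 to 1.22. The spread of Lgals3bp in the 4 month groups came from one lower and one higher sample in each of 4m0Gy and 4m4Gy. Timp1 was 12.2 ± 1.68 CPM against 10.97 ± 1.301 CPM, with an interval of 0.733 to 1.1, and Met was 21.5 ± 1.40 CPM against 20.5 ± 3.45 CPM, with an interval of 0.814 to 1.1. The 2 most abundant members thus differed by less than the spread between samples.

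Markers of other cell types also differed with age, where edgeR called 1.82% of all genes as higher and 2.43% as lower. Of 8 fibroblast markers, 5 fell in edgeR, among them the collagen genes Col1a1 at -2.51 ± 0.13 (SE) and Col3a1 at -2.09 ± 0.14 (SE) on the log2 scale. Their summed level was 2414 to 3336 CPM in the 1 week groups and 976.1 to 1299 CPM in the 4 month groups. Fn1 is also made by fibroblasts, and it and the fibroblast sum both separated the 1 week from the 4 month samples. Such a separation was found in 12.8% of all genes tested. Of 9 macrophage markers, 5 fell, among them Csf1r, the receptor of colony stimulating factor 1, at -0.59 ± 0.11 (SE), and the sum was 247.5 to 302 CPM in the 1 week groups and 146.5 to 217.5 CPM in the 4 month groups. Macrophages also express galectin-3. Of 8 adipocyte markers, 4 fell, and their sum was 385.7 to 694.1 CPM in the 1 week groups and 192.8 to 443.9 CPM in the 4 month groups.

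Of 7 C cell markers, 2 rose with age in edgeR, and Calca is described here. It was 3181 and 1993 CPM in 1w0Gy, 1786 and 2594 CPM in 1w4Gy, 4108 and 5265 CPM in 4m0Gy, and 5884 and 6769 CPM in 4m4Gy. The order of the 4 month samples by Calca was the same as their order by Cited1, and 1w0Gy replicate 1 was the highest 1 week sample in both. Calca is also the gene closest to Cited1 by correlation, as given below, and it was named after its values were seen. The log2 difference of Calca was 1.19 ± 0.20 (SE) with an adjusted p of 0.0132 from edgeR. The sum of the 7 C cell markers was 3425 to 5861 CPM in the 1 week groups and 6361 to 8550 CPM in the 4 month groups. This sum did not keep the order by Cited1, at 8550 CPM in 4m4Gy replicate 1 and 7415 CPM in 4m4Gy replicate 2. Chga, a gene of this sum, was 2353 CPM in replicate 1 and 298.6 CPM in replicate 2. The parathyroid markers summed to 5367 and 343.1 CPM in the same samples, and the part of parathyroid tissue in the C cell sum was not tested. With age, 5 of the 7 C cell markers lay above 0 on the log2 scale and 2 below. Of 12 thyrocyte markers, the TSH receptor gene Tshr fell by 0.28 ± 0.07 (SE) on the log2 scale and the other 11 were not called by edgeR, while DESeq2 also called Dio1, a deiodinase gene, as higher. Of 6 endothelial markers, the cadherin gene Cdh5 fell by 0.44 ± 0.06 (SE) on the log2 scale, and the other 5 were not called, at -0.12 to 0.18. The part of these cell types in the age differences of Cited1, Fn1, and Lgals3 was not tested.

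**Figure D3:**
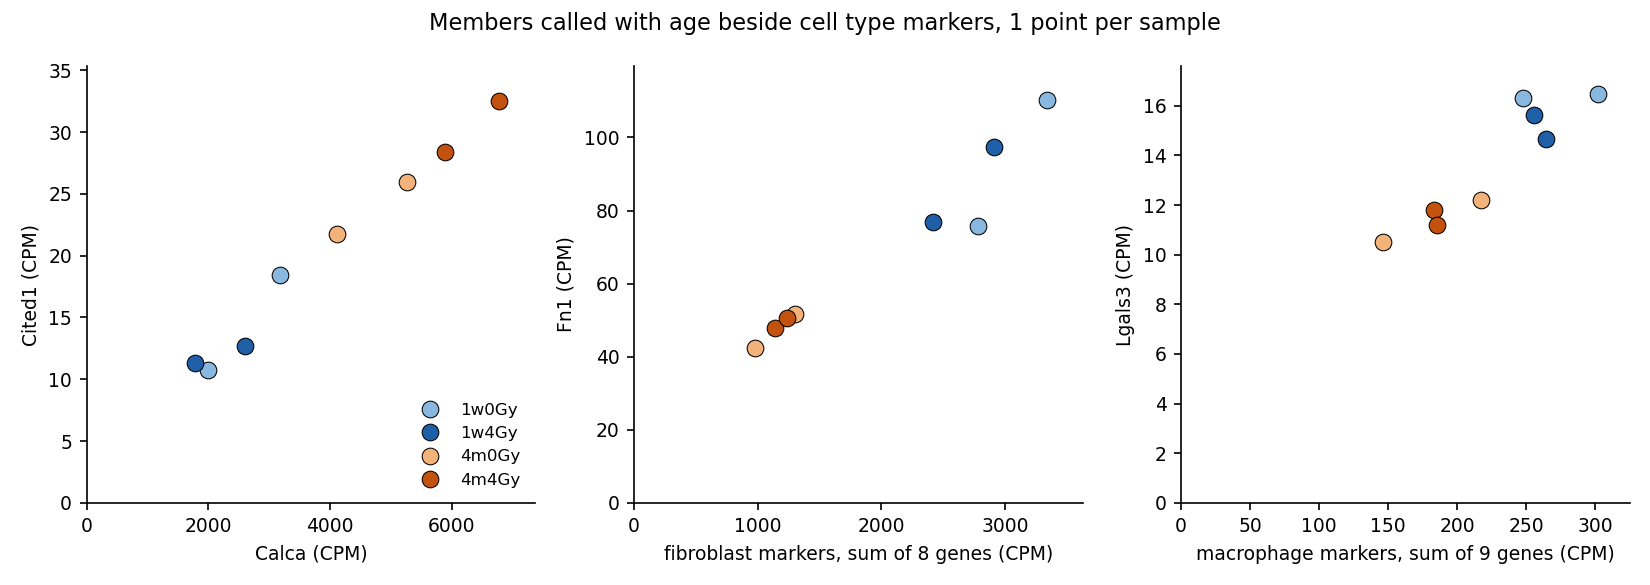
Each of the 8 samples as 1 point, colored by group, on linear axes from 0 in CPM: Cited1 against Calca (left), Fn1 against the sum of 8 fibroblast markers (middle), and Lgals3 against the sum of 9 macrophage markers (right). Calca is a single C cell marker, the gene closest to Cited1 by correlation, and was named after its values were seen. The left panel is therefore no test of likeness, and the other panels use sums of whole lists. In each panel the 4 samples of the 4 month groups lie apart from the 4 of the 1 week groups on both axes, higher for Cited1 and Calca and lower for the other pairs.

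The galectin family held 11 listed genes, of which 9 were tested. With age, 3 of the 9 fell in edgeR and DESeq2 and none rose, where 2.43% of all genes fell and 1.82% rose in edgeR. The median log2 difference was -0.38 against -0.002 over all genes. Lgals7, a galectin of stratified epithelia, ranged from 2.663 to 4.725 CPM in the 1 week groups and from 0.5169 to 2.201 CPM in the 4 month groups, with a log2 difference of -1.34 ± 0.29 (SE) and an adjusted p of 0.0319. Lgals12, a galectin of adipocytes, ranged from 2.595 to 3.346 CPM and from 0.6474 to 2.287 CPM, with a log2 difference of -1.096 ± 0.263 (SE) and an adjusted p of 0.0465. Both were less abundant than Lgals3 in all 8 samples. Krt5, a keratin of basal epithelial cells, fell by 1.06 ± 0.23 (SE) on the log2 scale. It was 1 of 2 tested markers of cartilage and trachea, and the other, Sox9, was at 0.01 and not called. The part of adipocytes in the Lgals12 values and of stratified epithelium in the Lgals7 values was not tested.

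The other tested galectins did not pass with either tool. The log2 differences with age were -0.07 for Lgals8, -0.20 for Lgals9, -0.09 for Lgalsl, -0.38 for Lgals5, and -0.62 for Grifin, with adjusted p values of 0.201 to 0.648 in edgeR. Lgals5 and Lgals9 are similar in sequence in the rat, so reads may be split between them, and their values are uncertain. Lgals2 and Lgals4 were too low to test, with at most 0.0664 CPM in any sample. No galectin was called for irradiation at either age or for the interaction by edgeR or DESeq2. At 4 months DESeq2 gave no adjusted p for Lgals3, so it could not call that gene. Lgals5, Lgals7, Lgals12, and Grifin were less abundant than Lgals3 there, and DESeq2 may have given none for them either. In the comparisons of irradiation at 1 week and of the interaction, 0 of the 9 had an unadjusted p under 0.05 in edgeR. For irradiation at 4 months 1 had, Lgals12 at -1.088 ± 0.425 (SE) on the log2 scale. Over both ages 1 had, Lgals5 at 0.553 ± 0.246 (SE). Of all genes, 882 of 15359, 1430 of 15684, 1227 of 15253, and 633 of 15684 had one, in that order.

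Of the galectin ligands and glycan branching genes, 2 of 8 tested rose with age and none fell in edgeR, and DESeq2 called Lamp1 as higher as well. Over all genes, 1.82% rose and 2.43% fell in edgeR, and DESeq2 called more genes with age than edgeR did, as given below. Slc3a2, the heavy chain of the CD98 amino acid transporter, was 231.5 to 266.9 CPM in the 1 week groups and 276.9 to 312.5 CPM in the 4 month groups, with a log2 difference of 0.30 ± 0.07 (SE). Muc1, a cell surface mucin, was 32.27 to 43.6 CPM and 48.74 to 54.72 CPM, with a log2 difference of 0.40 ± 0.08 (SE). Their adjusted p values from edgeR were 0.0354 and 0.0275. The 4 samples of each age did not overlap for either gene, a separation found in 12.8% of all genes tested.

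Of 16 fibronectin matrix and receptor genes, 5 fell with age and none rose in edgeR, while DESeq2 called 7 as lower and 1 as higher. Over all genes, 2.43% fell and 1.82% rose in edgeR, and DESeq2 called more genes with age than edgeR did, as given below. The median log2 difference of the list was -0.55. Sparc, a collagen-binding matrix protein, was 851.5 to 1038 CPM in the 1 week groups and 395.6 to 511 CPM in the 4 month groups, a log2 difference of -1.04 ± 0.10 (SE). Fbn1, which encodes fibrillin-1, fell by 1.06 ± 0.10 (SE), Postn, which encodes periostin, by 1.18 ± 0.22 (SE), Fbln1, which encodes fibulin-1, by 0.68 ± 0.16 (SE), and Thbs1, which encodes thrombospondin-1, by 0.43 ± 0.05 (SE) on the log2 scale. None of the 6 listed integrin genes was called by edgeR or DESeq2. The matrix gene Tnc and the syndecan genes Sdc1 and Sdc4 were called by DESeq2 and not by edgeR, with log2 differences of -0.84, -0.55, and 0.23 and adjusted p values of 0.0589, 0.061, and 0.0651 in edgeR.

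Of 14 tested metalloproteinases and inhibitors, 2 fell with age in edgeR, against 2.43% of all genes, and DESeq2 called the same 2. Mmp2, a gelatinase, was 71.8 to 95.9 CPM in the 1 week groups and 37.93 to 47.1 CPM in the 4 month groups, a log2 difference of -0.91 ± 0.10 (SE) with an adjusted p of 0.00168 from edgeR. Mmp14, a membrane-bound protease that activates MMP2, was 92.76 to 104.5 CPM and 71.48 to 84.11 CPM, a log2 difference of -0.29 ± 0.06 (SE) with an adjusted p of 0.0301. Neither gene overlapped between the ages, as was so for 12.8% of all genes tested. The other inhibitors tested, Timp3 and Timp4, were called by neither tool, at 0.10 and 0.31 on the log2 scale, as Timp1 was not.

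None of 15 HGF and MET signalling genes and none of 9 tested CITED partners was called with age by edgeR or DESeq2. In edgeR 3 and 1 of them had an unadjusted p under 0.05, against 3237 of 15684 over all genes. Hgf, the ligand of MET, was low in all samples at 1.295 to 2.584 CPM. The 3 most abundant members of the MET list were Spint2, an inhibitor of HGF-activating proteases, at 544.8 to 698.3 CPM, Stat3, a transcription factor activated downstream of MET, at 116.8 to 154.1 CPM, and St14, the protease matriptase, at 121.8 to 141.7 CPM. Of the CITED partners, Ep300, which encodes p300, was 79.87 to 99.55 CPM and Crebbp, which encodes CBP, was 68.03 to 85.52 CPM. The paralogs of Cited1 were not called with age either, with log2 differences of -0.02 for Cited2 and 0.26 for Cited4.

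Cited4, which like Cited1 encodes a co-activator that binds CBP and p300, was the one pathway gene that DESeq2 called in an irradiation comparison, as higher over both ages. It was 35.29 and 33.58 CPM in 1w0Gy, 51.85 and 38.31 CPM in 1w4Gy, 39.09 and 40.29 CPM in 4m0Gy, and 56.15 and 56.13 CPM in 4m4Gy. Both irradiated samples were higher at each age, although one 1w4Gy sample lay below both 4m0Gy samples. In edgeR the log2 difference over both ages was 0.44 ± 0.09 (SE), and the adjusted p of 0.806 missed the threshold, as did the adjusted p of 0.864 at 1 week and 0.471 at 4 months. Cited1 itself overlapped between sham-irradiated and irradiated samples in that comparison, at 0.05 ± 0.18 (SE) on the log2 scale.

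Of 23 other thyroid cancer markers tested, 2 rose and 2 fell with age in edgeR, against 1.82% and 2.43% of all genes. The median log2 difference was -0.06. Icam1, an adhesion molecule, rose by 0.47 ± 0.07 (SE) with an adjusted p of 0.00631 from edgeR, from 29.97 to 33.51 CPM in the 1 week groups to 40.9 to 46.51 CPM in the 4 month groups. Muc1, described above, was the other that rose. Etv5, a transcription factor downstream of MAP kinase signalling, fell by 0.43 ± 0.10 (SE), and Anxa1, which encodes annexin A1, fell by 0.47 ± 0.11 (SE), with adjusted p values of 0.0409 and 0.0393. Dpp4, a peptidase raised in papillary carcinoma, was 0.43 on the log2 scale with an adjusted p of 0.0558 in edgeR, which did not call it, while DESeq2 did. In all, DESeq2 called 4 of these markers as higher and 2 as lower, and it also called more genes than edgeR over all genes. None of the genes in the 7 pathway lists was called by edgeR for irradiation at either age, for irradiation over both ages, or for the interaction. Of 89 tested, 9 had an unadjusted p under 0.05 in edgeR for irradiation at 1 week, against 882 of 15359 over all genes. Of 90 tested, 11 had one at 4 months, 11 for the interaction, and 6 over both ages. The counts over all genes were 1227 of 15253, 1430 of 15684, and 633 of 15684, in that order. Of the pathway genes, DESeq2 called Cited4 alone in these comparisons, but at 4 months it may have given no adjusted p for the less abundant ones.

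**Figure D4:**
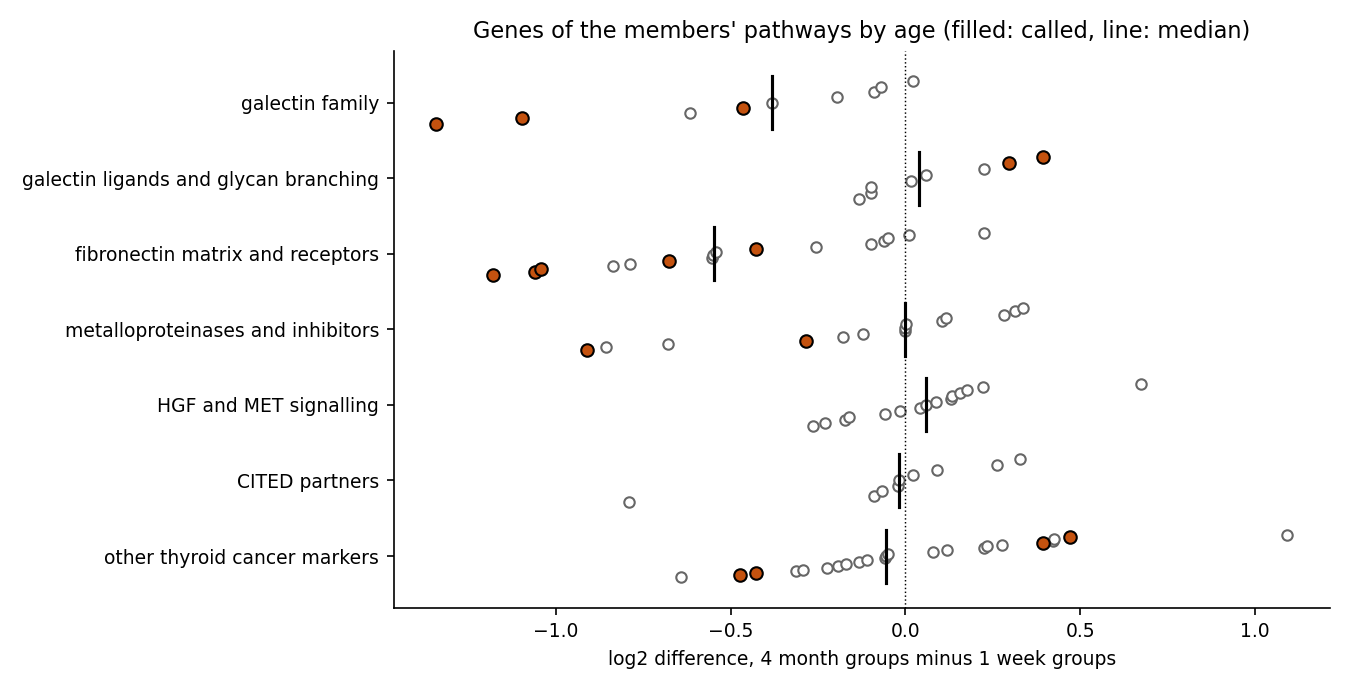
Log2 difference of each tested gene, 4 month groups minus 1 week groups (horizontal axis), in the 7 pathway lists (vertical axis); each point is a gene, filled points passed an adjusted p under 0.05, and lines are list medians. The median lies at -0.38 for the galectin family and at -0.55 for the fibronectin matrix and receptors, and the filled points of both lists lie below 0.

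The genes most like each member were found by Pearson's r of log2 CPM over the 8 samples among 13048 genes, as a description. The 8 samples share 4 groups, and for each member the closest genes had an r above 0.9. For Cited1 they were Calca (r = 0.988), Hoxb7 (0.986), and Syp (0.981), which encodes the synaptic vesicle protein synaptophysin. For Fn1 they were the receptor tyrosine kinase gene Axl (0.986), the protease gene Ctss (0.985), and Mmp2 (0.984). For Lgals3 they were the clock gene Arntl (0.990), the deiodinase gene Dio2 (0.985), and the transporter gene Slco2b1 (0.982). Dio2, which converts T4 to T3, was 7.585 to 11.12 CPM in the 1 week groups and 2.132 to 3.343 CPM in the 4 month groups.

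The members that did not differ with age had other partners. For Lgals1 they were the mitochondrial genes Ndufs8 (r = 0.964) and Atp5pb (0.958) and the translation factor gene Eif2s3y (0.964), and each was lowest in 1w4Gy replicate 2, as Lgals1 was. For Lgals3bp they were Cul4a (0.946), Gpr107 (0.915), and the endothelial adhesion gene Sele (0.907). For Timp1 they were Pmf1 (0.984), Galns (0.947), and Cdc42ep4 (0.942), and for Met Dpyd (0.982), Nat10 (0.951), and Flnc (0.940). Among the members themselves, Lgals3 and Fn1 were the most alike over the 8 samples (r = 0.911, n = 8), and Lgals3 and Cited1 the most opposed (r = -0.797, n = 8), both along the age groups.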

How the data were processed

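The authors mapped reads with HISAT2 2.2.1, counted them with featureCounts 2.0.0, and deposited raw counts for 54991 transcripts of 30560 gene identifiers. The genome build is not given in the sources used here. The deposited table also gives transcript lengths and 16 columns of RPKM and TPM values, not used here. Transcripts of a gene held nearly the same reads, so the transcript with the highest summed count stood for each gene. Counts were tested in R 4.3.3 with edgeR 4.0.16 (TMM, filterByExpr, glmQLFit, glmQLFTest) and Benjamini-Hochberg adjustment over all genes tested, and CPM and CPM per kilobase were computed from the counts. Calls needed an adjusted p under 0.05, with a fold above 1.5 or under 0.5 for irradiation at each age. Each irradiation comparison used its 4 samples, and the others used 8. The study's own test, DESeq2 1.42.0, was an alternative. Scripts were tested on simulated data. The members and lists were chosen with earlier results of these data known. The text names all members and galectins, up to 5 called genes of each list and comparison, abundant genes where none was called, and the 3 genes most like each member. Dpp4, Sdc1, Sdc4, Tnc, Lamp1, Timp3, Timp4, Cited2, Cited4, and the markers of cell types were named after their values were seen. Of the lists, Krt19, Liph, Timp2, Lamp2, Cldn5, Myh1, Foxj1, Hbb, and Alas2 were not analysed here. Some results on single cell type markers are not reported here.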

Additional observations from a re-analysis of the deposited data

Results flagged for a closer look

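None of the 7 members moved in opposite directions at the 2 ages without overlap between the groups. Of 94 genes looked at, the members and the genes of their pathways, 11 did so (11.7%), against 9.34% of the 15684 genes tested. The log2 interaction, the response at 1 week minus the response at 4 months, was 1.04 for Mgat5, 0.31 for Itgav, 1.29 for Itga4, 0.97 for Hgf, 0.37 for Cbl, 0.21 for Ptprj, 0.33 for Ep300, and 0.53 for Smad3, each higher after irradiation at 1 week and lower after irradiation at 4 months. It was -0.68 for Fbln1, -1.04 for Postn, and -0.42 for Plau, each lower at 1 week and higher at 4 months. None of the 11 was called by edgeR's interaction test, in which the smallest adjusted p over all genes was 0.269.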

How the results depend on the processing

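The count of called members stayed at 0 under every alternative run for irradiation at 1 week, at 4 months, over both ages, and for the interaction, with each sample left out included. For irradiation at 4 months, DESeq2 gave no adjusted p for Lgals3, Timp1, and Met, so it could not call them. With age, 3 members were called under DESeq2, its size factors, the upper quartile, both other filters, both other transcript choices, the replicate block, and a robust estimate of the spread, which was added after seeing the data. With age, 0 members were called in the sham-irradiated samples alone and 1 in the irradiated samples alone, fits with 4 samples instead of 8, and 2 to 3 without each sample in turn, where Lgals3 was the one lost.

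Counts over all genes moved more. DESeq2 called 13 genes for irradiation at 1 week, 4 at 4 months, 26 for the interaction, 12 for irradiation over both ages, and 1042 for age, against 0, 0, 0, 1, and 666 in edgeR. Without a filter on low counts, 2 were called at 4 months, 2 for the interaction, and 3 over both ages. A robust spread gave 1 at 1 week, 3 at 4 months, and 2 over both ages, and the fit of all 8 samples gave 1 at 1 week. Age called 111 genes in the sham-irradiated and 70 in the irradiated samples alone. Without each sample in turn, 0 to 59 genes were called at 1 week, 1 to 29 at 4 months, 1 to 3 over both ages, and 266 to 631 for age, the lowest without 1w0Gy replicate 2. In the 4-sample comparisons this leaves 1 sample in a group, which is assumed to vary like the other group. The cause of these shifts was not tested.

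Replicate numbers did not pair the samples: deviations of same-numbered samples correlated at -0.231 to 0.152 between groups. The replicate block changed no member's call and gave 7 genes at 1 week, 2 at 4 months, and 691 for age.

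No called difference changed direction. Among differences that were not called, Lgals3bp at 4 months was 0.0 with the upper quartile, and with age in the sham-irradiated samples alone Lgals1 was -0.048 and Met was 0.041 on the log2 scale. Log2 differences also crossed 0 without each sample in turn. For irradiation at 1 week the ranges were -0.286 to 0.074 for Lgals1, -0.026 to 0.11 for Lgals3bp, -0.342 to 0.2 for Fn1, -0.266 to 0.115 for Timp1, -0.189 to 0.015 for Met, and -0.617 to 0.157 for Cited1. For irradiation at 4 months the ranges were -0.022 to 0.095 for Lgals1, -0.089 to 0.118 for Lgals3, -0.21 to 0.217 for Lgals3bp, -0.079 to 0.21 for Fn1, and -0.112 to 0.272 for Timp1. For the interaction the ranges were -0.334 to 0.024 for Lgals1, -0.181 to 0.247 for Lgals3bp, -0.402 to 0.132 for Fn1, and -0.37 to 0.041 for Timp1. For irradiation over both ages the ranges were -0.087 to 0.059 for Lgals1, -0.058 to 0.11 for Lgals3bp, -0.11 to 0.123 for Fn1, -0.081 to 0.108 for Timp1, and -0.064 to 0.284 for Cited1. For age the ranges were -0.056 to 0.082 for Lgals1, and -0.032 to 0.142 for Lgals3bp. With 2 samples in a group, the spread between rats limits which differences can be called.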
